A study of Homo sapiens with 3 samples.

Results

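The baseline transcriptome of H128 cells was read from the siCont library, which was chosen by its label and is 1 of the 3 libraries of the series. H128 is an established human small cell lung cancer (SCLC) line, and the cells of this library had been transfected with a control siRNA, called vehicle siRNA in the labels, for 48 h. The cells were kept in RPMI medium with fetal bovine serum and antibiotics. The other 2 libraries, siERRG2 and siERRG3, came from H128 cells transfected with siRNAs against ESRRG and were not used. The siCont library is a single culture of a single line with no replicate, so no test was possible and no spread between cultures is known. Every interval below is an exact Poisson 95% interval on the reads and covers counting error only. The library had also been through transfection, so its levels are those of siRNA-treated cells and not of untouched ones.

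SCLC is a fast-growing tumor that in most cases keeps features of pulmonary neuroendocrine cells, which store peptides and amines in dense-core granules and share much of the secretory and synaptic machinery of neurons. Tumors are often sorted by the transcription factor that dominates, NEUROD1, POU2F3 and YAP1 among them. Loss of RB1 function is typical, and a member of the MYC family is often highly expressed. The estrogen-related receptors ESRRA, ESRRB and ESRRG, the family that contains the siRNA target of the other libraries, are orphan nuclear receptors known for control of energy metabolism.

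The table held 17448 protein-coding genes, and the estimated counts of siCont summed to 19861980. Levels are given as FPKM, that is fragments scaled to transcript length and to the library total, so that genes of different length can be set side by side, and ranks run from 1 for the highest FPKM to 17448. The median gene stood at 4.39 FPKM. No counts were assigned to 1011 genes, and the floor for a count of 0 was set at 3 counts, which is 0.151 CPM (counts scaled to the library total) in this library. At or above 1 FPKM were 11199 genes, or 64.2% of the table, and this share is the background for the gene lists below. At or above 10 FPKM were 6269 genes (35.9%), at or above 100 FPKM 780 genes (4.47%) and at or above 1000 FPKM 68 genes. The 100 highest genes held 31.6% of the summed FPKM. Whole counts were found for 54.5% of the genes, and a count that was not whole is taken here as a sign that reads were shared between features. The table lists genes that had reads in at least 1 of the 3 libraries, so these shares are not shares of all human genes.

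**Figure D1:**
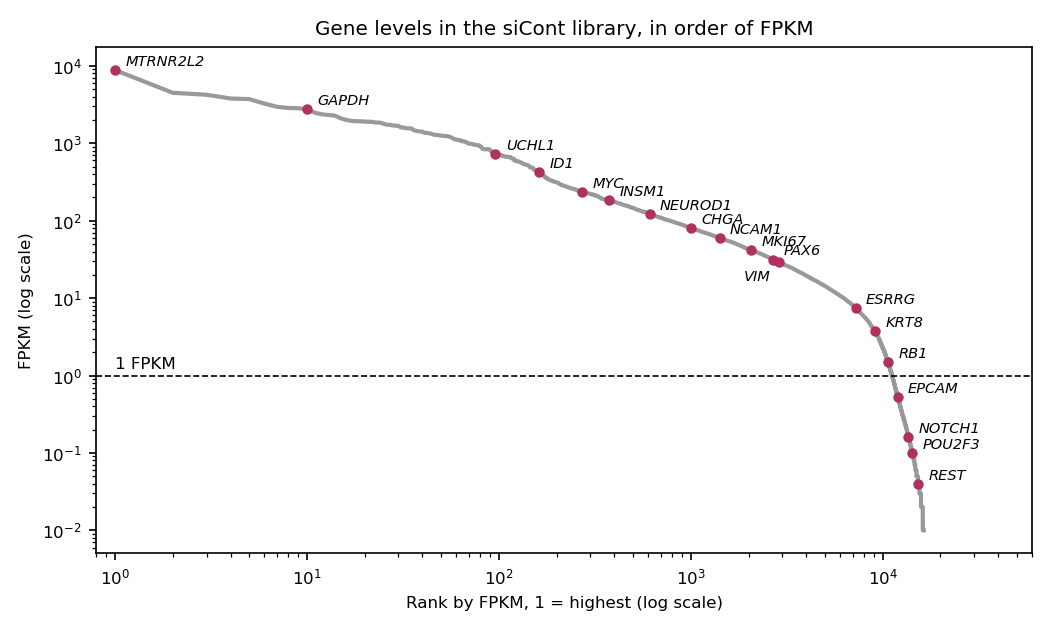
All genes of the siCont library with a level above 0, ordered by FPKM (x axis, rank; y axis, FPKM; both log scales), with 19 genes marked by red points and the dashed line at 1 FPKM. INSM1 and NEUROD1 lie above 100 FPKM, ESRRG lies at 7.41 FPKM, and EPCAM, NOTCH1, POU2F3 and REST lie under the line.

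The top of the list was made up of translation, glycolysis and cytoskeleton. RPS27, a small-subunit ribosomal protein, reached 4238 FPKM (27806 counts, rank 3), followed among genes with whole counts by RPS2 at 3790.4 and GAPDH, a glycolytic enzyme, at 2758 FPKM. Of the 25 highest genes, 15 encode ribosomal proteins, and those described here, RPS27, RPS2, RPS4X, RPL41, RPS6, RPLP1, RPLP0, RPS28, RPL9, RPL11 and RPL13A, lay between 1794 and 4238 FPKM. The other members were the elongation factor EEF1A1 (2319 FPKM), the peptidyl-prolyl isomerase PPIA (2861), the glycolytic enzyme enolase ENO1 (2838), the chromatin-associated PTMA (2009.8), the alpha-tubulin TUBA1B (1950.0) and the beta-actin gene ACTB (1850.4). MTRNR2L2 (8845 FPKM, rank 1), MTRNR2L8 (4491, rank 2) and MTRNR2L9 (3262, rank 6) completed the 25. The MTRNR2L genes are nuclear copies of part of the mitochondrial 16S rRNA, the table holds 0 genes of the mitochondrial chromosome, and 9 of the 10 MTRNR2L genes had non-whole counts, taken here as reads shared between features. The 10 MTRNR2L genes took 1.96% of all counts, and whether those reads came from the nuclear copies was not tested.

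Among families read by gene symbol, the 84 cytosolic ribosomal protein genes held 20.6% of the summed FPKM, and 82 of them stood at or above 1 FPKM with a median of 1111. The median of the 69 initiation and elongation factors was 60.2 FPKM, led by EEF1A1, EEF2 (1736) and EEF1G (1133). EEF1A2, the form of this elongation factor usually found in neurons and muscle, was at 566 FPKM (22570 counts, rank 130). Of 37 proteasome subunits 35 were at or above 1 FPKM, with PSMB4 at 415, PSMA7 at 344 and PSMB5 at 286. Chaperones had a median of 136 FPKM over 30 genes, with HSPA8 at 1558, HSP90AB1 at 837 and HSP90AA1 at 573. Among tubulins TUBA1B, TUBB (1095) and TUBA1A (989) were highest, and the neuronal beta-tubulin TUBB3 was at 191 FPKM. Of 71 histone genes 36 reached 1 FPKM, headed by the replication-independent H3F3A (718), H2AFZ (362) and H2AFY (167). Canonical histone mRNAs lack a poly(A) tail, so their level depends on how RNA was selected for the library.

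Pathways of the table's own KEGG annotation with 20 or more genes were also ordered by their medians. Of 322 such pathways the highest were those of Ribosome (179 FPKM over 162 genes), Oxidative phosphorylation (76.0 over 151), Proteasome (72.1 over 49), Parkinson's disease (68.0 over 163), Protein export (44.8 over 28), the citrate cycle (44.03 over 40) and Spliceosome (43.5 over 156). Synaptic vesicle cycle stood in place 25 with a median of 21.0 FPKM and 52 of 65 genes at or above 1 FPKM. The pathways of single synapse types stood lower. Dopaminergic synapse was in place 150 (6.65 FPKM), cholinergic in 218 (3.82), glutamatergic in 244 (2.49), GABAergic in 251 (1.965) and serotonergic in 273 (0.91). At the other end were Retinol metabolism (0.09 FPKM over 51 genes), Drug metabolism by cytochrome P450 (0.1 over 65) and Asthma (0.11 over 27, with 0 genes at 1 FPKM). Neuroactive ligand-receptor interaction had a median of 0.135 FPKM over 234 genes. Genes are shared between pathways, so these medians are not independent of each other.

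Of the subtype factors analysed, NEUROD1 was the one expressed. NEUROD1, a basic helix-loop-helix (bHLH) factor of neuroendocrine and neuronal differentiation, stood at 123 FPKM (7395 counts, interval 7227 to 7566, rank 611). POU2F3, the factor of tuft cells, had 6 counts (0.1 FPKM, interval of the counts 2.2 to 13.1). YAP1, the Hippo pathway co-activator, had 2 counts (0.02 FPKM, interval of the counts 0.24 to 7.2), and ATOH1 had 0. Not every subtype factor was analysed here, so NEUROD1 is not shown to be the highest of them. In this list 1 of 4 genes was at or above 1 FPKM.

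Of the neuroendocrine and neural transcription factors 38 of 52 members (73.1%) were at or above 1 FPKM, beside 64.2% of all genes and 68.1% of all annotated transcription factors, and their median was 7.23 FPKM. ID1, ID3 and ID2, which bind bHLH proteins and keep them from DNA, were the highest besides INSM1, at 430 (rank 162), 216 (rank 310) and 134 FPKM (rank 548). INSM1, a zinc finger factor used as a neuroendocrine marker in pathology, reached 183 FPKM (10359 counts, interval 10161 to 10560, rank 376). SOX4 followed at 57.7, NHLH1, a bHLH factor of developing neurons, at 43.7, NFIB, which drives metastasis in SCLC models, at 41.7 and HAND2, known from sympathetic neurons, at 37.9 FPKM. PAX6 stood at 31.5 and NEUROD4 at 25.9 FPKM. NKX2-1, the lung lineage factor, was near the threshold at 1.03 FPKM (48 counts, interval in FPKM 0.759 to 1.37). FOXA2 had 3 counts, NKX2-2 had 1 and RFX6 had 0.

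The secretory and synaptic markers had a higher median than the neuroendocrine and neural transcription factors, at 19.0 FPKM. Of 40 members 31 (77.5%) stood at or above 1 FPKM, beside 64.2% of all genes, with 22 at or above 10 and 5 at or above 100. UCHL1, the neuronal ubiquitin hydrolase also called PGP9.5, was at 729 FPKM (16031 counts, rank 96). CPE, a carboxypeptidase that trims prohormones, was at 184, CPLX2, which clamps synaptic vesicle fusion, at 145, and the membrane fusion protein STX1A at 140.0 FPKM. SYP, the vesicle protein synaptophysin, was at 109 FPKM (5279 counts, rank 705). CHGA and CHGB, the granins of dense-core granules, stood at 80.9 (3282 counts, rank 999) and 68.9 FPKM. NCAM1, or CD56, was at 59.9, ENO2 at 80.4, RAB3A at 90.7 and SNAP25 at 85.7 FPKM. Parts of the amine and peptide machinery were low or without reads. The prohormone convertase PCSK1, the noradrenaline-forming enzyme DBH and the neuronal STMN2 had 0 counts, DDC had 3 counts and SCG5 2, whereas the second convertase PCSK2 stood at 1.84 FPKM.

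Of 41 hormone and neuropeptide genes 15 (36.6%) were at or above 1 FPKM, beside 64.2% of all genes, and the median was 0.36. The granin-like VGF was highest at 32.3 FPKM, ahead of STC1 at 29.6, the bombesin-like NMB at 9.63, STC2 at 7.53, NMU at 5.80 and NTS at 4.73. CALCA, the calcitonin gene, had 1 count, NPY had 1, and GAST, GHRH, CGA and PPY had 0. GRP and other list members with no value were not analysed here.

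The genes that follow were named after their values were seen. The heavy neurofilament NEFH stood at 284 FPKM (20898 counts, rank 218) and the related intermediate filament PRPH at 262 (rank 241), above INA at 23.3 and NEFL at 23.2. KIF1A, a kinesin that carries synaptic vesicle precursors, led 38 kinesins at 116 FPKM, before the mitotic KIF22 at 64.0 and KIF2C at 59.7. Microtubule-associated MAP1B stood at 113, STMN3 at 116 and MAP2 at 29.99 FPKM. DCX had 6 counts and NES 18. The vesicular glutamate transporter SLC17A6 was at 22.8 FPKM, and the GABA transporter SLC32A1 at 0.39. CKB, the brain form of creatine kinase, was at 685 FPKM (rank 105), the fatty acid carrier FABP3 at 665 (rank 111) and the imprinted, retrotransposon-derived PEG10 at 982 (130810 counts, rank 72), whose imprinted neighbor SGCE stood at 69.3 FPKM.

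**Figure D2:**
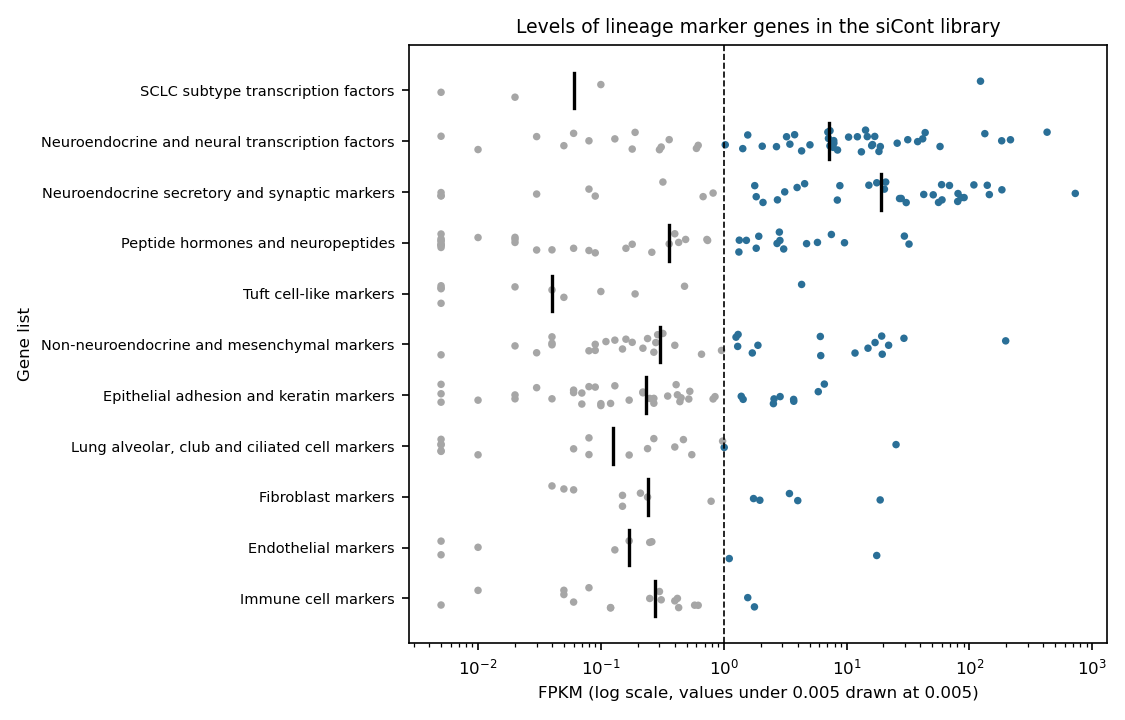
FPKM of each member (points, log x axis, values under 0.005 drawn at 0.005) of 11 lists of lineage markers (y axis). Blue points are at or above 1 FPKM, gray points are under it, black bars are list medians, and the dashed line is 1 FPKM. The median bars of both neuroendocrine lists, at 7.23 and 19.0 FPKM, lie above the line and those of the other 9 lists lie under it.

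Lists for other cell types lay below the background share of 64.2%. SOX9 (4.31 FPKM) was the 1 of 11 tuft cell-like markers at or above 1 FPKM, while TRPM5, GNAT3, ALOX5 and LRMP had 0 counts. Of the other tuft markers AVIL stood at 0.48, GFI1B at 0.19, CHAT at 0.05 and PTGS1 at 0.04 FPKM. Lung alveolar, club and ciliated markers gave 2 of 18, the lipid transporter ABCA3 at 25.3 and CAPS at 1.01 FPKM. The surfactant gene SFTPB had 15 counts (0.27 FPKM), and SFTPA1, SCGB3A1 and MUC5AC had 0. Endothelial markers gave 2 of 9, with CDH5 (VE-cadherin) at 17.6 and ESAM at 1.11 FPKM, whereas VWF and KDR had 0 counts and PECAM1 was at 0.25. Immune markers gave 2 of 18, LYZ at 1.78 and CD3E at 1.57, with PTPRC (CD45) at 0.40 FPKM. Fibroblast markers gave 5 of 13, with COL1A2 at 18.8, FAP at 4.01, POSTN at 3.43, LUM at 1.97 and COL1A1 at 1.75, beside PDGFRA at 0.05 and PDGFRB at 0.04.

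Epithelial genes were low. Of 42 adhesion and keratin markers 9 (21.4%) were at or above 1 FPKM, beside 64.2% of all genes, and no member reached 10 FPKM. The simple-epithelium keratins KRT19, KRT8 and KRT18 stood at 3.72, 3.71 and 2.57 FPKM. CD24 was at 5.89 and KRT15 at 2.88 FPKM. EPCAM had 18 counts (0.53 FPKM, interval 0.314 to 0.838) and the E-cadherin gene CDH1 20 counts (0.22 FPKM, interval 0.133 to 0.337). Of 31 keratins 7 reached 1 FPKM, of 18 claudins 2, CLDN12 (6.80) and CLDN15 (6.56), and of 50 clustered protocadherins 11. Among 22 cadherins, CDH5 was followed by CDH23 (15.3), CDH7 (12.6), CDH12 (12.5) and the N-cadherin gene CDH2 (11.7).

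Mesenchymal and non-neuroendocrine genes were mixed, with 15 of 38 (39.5%) at or above 1 FPKM. ANXA2 was at 198 FPKM, a value that rests on shared reads. VIM, the vimentin gene, stood at 29.4, TEAD4 at 22.0, TEAD1 at 19.5, SPARC at 19.3, SNAI2 at 17.1 and ZEB1 at 14.96 FPKM. REST, the repressor of neuronal genes in non-neuronal cells, had 6 counts (0.04 FPKM, interval 0.015 to 0.087). The YAP1 partner WWTR1 was at 0.09 and the YAP1 target genes CYR61, CTGF and ANKRD1 at 0.15, 0.09 and 0.03 FPKM. CD44 was at 0.96, AXL at 0.18 and CAV1 at 0.04 FPKM, and ANXA1 had 0 counts. Of matrix and adhesion families, 10 of 40 collagens (25%), 7 of 25 integrins (28%), 3 of 12 laminins (25%) and 5 of 15 matrix metallopeptidases (33.3%) were at or above 1 FPKM. These shares lay under the 64.2% of all genes. The integrin chain ITGB1 was at 98.0 FPKM and its highest alpha partners were ITGA9 at 6.73 and ITGAV at 6.25. COL16A1 (33.9), COL1A2 and COL19A1 (11.4) led the collagens, LAMC1 (23.1), LAMB1 (19.0) and LAMA5 (3.38) the laminins, and MMP24 (11.95), MMP2 (3.15) and MMP15 (2.71) the metallopeptidases. S100A2, a calcium-binding protein of basal epithelia, was at 50.4 FPKM, while S100A4 and S100A16 stood at 6.17 and 3.96.

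Of the MYC family only MYC was above 1 FPKM. It stood at 236 FPKM (21392 counts, interval 21106 to 21681, rank 271), MYCL at 0.16 FPKM with 7 counts and MYCN at 0 counts. Its obligate partner MAX was at 34.4 FPKM (rank 2490). The other genes of the network, which compete for MAX or work beside it, were MLX (43.98), MXI1 (21.7), MNT (16.3), MXD4 (16.3), MLXIP (14.4), MXD3 (14.3), MGA (6.54), MXD1 (6.21) and MLXIPL (0.76 FPKM).

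Cell cycle control genes followed, with a median of 19.6 FPKM. Of the cell cycle control list 29 of 32 members (90.6%) were at or above 1 FPKM, beside 64.2% of all genes. CDKN2A, which encodes the p16 and ARF proteins, was the highest at 321 FPKM (rank 192), with CDKN1A (p21) at 159.8, CDK4 at 126, TP73 at 109.8, CDKN2C at 109.6 and CDK1 at 66.9. MTAP and CDKN2B, which flank CDKN2A in the table, stood at 20.9 and 2.95 FPKM. RB1 had 138 counts (1.48 FPKM, interval 1.24 to 1.75, rank 10651), under the median gene. The RB1 relatives RBL1 and RBL2 stood at 4.03 and 7.91 FPKM. CCND1 (32.5), CCND2 (19.6) and CCND3 (35.8) were all expressed, while CDK6 was at 0.79 FPKM. Sequence changes in these genes cannot be read from a table of levels.

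All 30 proliferation genes were at or above 1 FPKM, beside 64.2% of all genes, with a median of 85.3 FPKM and none under 27.0. STMN1, a microtubule-destabilizing protein, was at 638, the ubiquitin enzyme UBE2C at 300.3, the replication clamp PCNA at 243, HMGB2 at 223, MCM7 at 221 and TPX2 at 138 FPKM. MKI67, the gene of the Ki-67 antigen, stood at 41.8 FPKM (9222 counts).

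Of the other oncogenes and growth genes 35 of 43 (81.4%) were at or above 1 FPKM, beside 64.2% of all genes. MYBL2, a cell cycle factor, led at 177, before the histone demethylase KDM1A at 171, the PI3K regulatory subunit PIK3R2 at 153, HRAS at 82.8, the survival protein MCL1 at 73.8 and the H3K27 methyltransferase EZH2 at 63.8. NRAS was at 40.8 FPKM. BCL2 stood at 0.99 FPKM (66 counts, interval 0.766 to 1.26) beside BCL2L1 at 42.4. SMO and GLI1 of the Hedgehog pathway were at 0.08 and 0.13, FGFR1 at 0.71 and SOX2 at 8.45 FPKM. TERT, which encodes the catalytic subunit of telomerase, stood at 0.79 FPKM with 64 counts.

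Among tumor suppressors and genes often mutated in SCLC, 36 of 44 (81.8%) were at or above 1 FPKM, beside 64.2% of all genes. The chromatin remodeler SMARCA4 was at 119, TP73 at 109.8, the NRF2 adaptor KEAP1 at 50.8, SMARCA2 at 42.1, MEN1 at 31.8 and BAP1 at 30.5. CREBBP and EP300 stood at 10.2 and 14.3 FPKM, KMT2D at 7.69. Among the 8 under 1 FPKM were NOTCH1 (0.16), NOTCH2 (0.04), NOTCH3 (0.11), NOTCH4 (0.11), CDH1, SEMA3B (0.30) and SLIT2 (0.11).

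**Figure D3:**
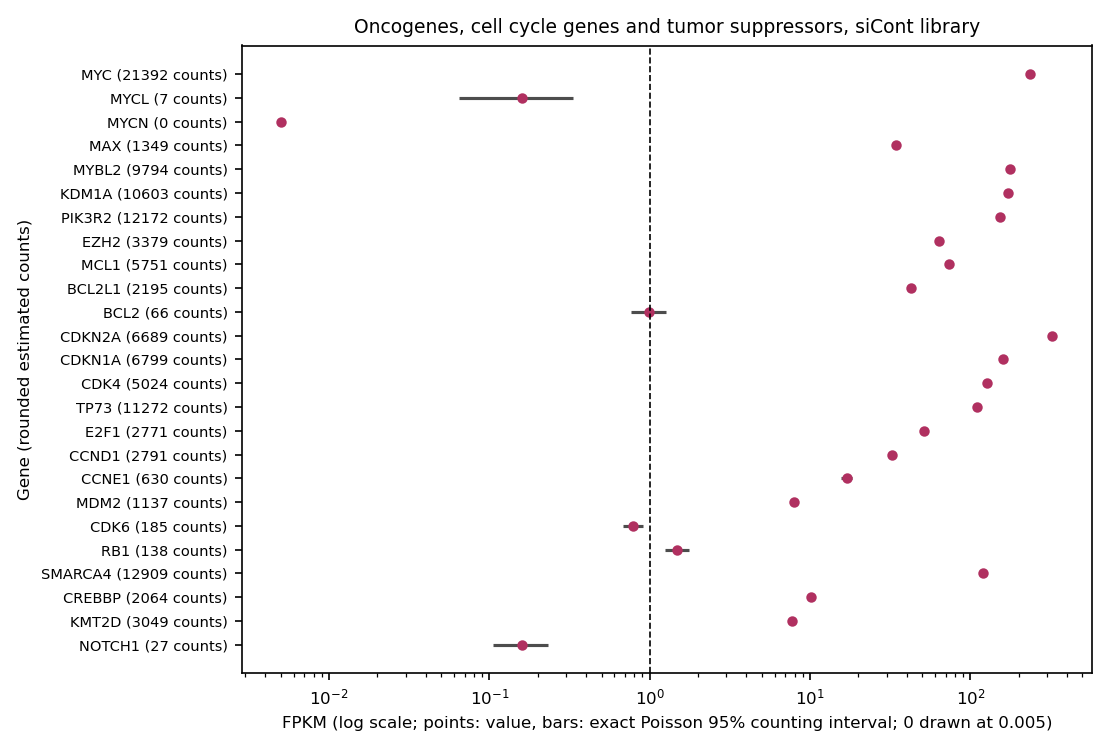
FPKM (log x axis) of 25 oncogenes, cell cycle genes and tumor suppressors with their rounded estimated counts (y axis). Points are values, bars are exact Poisson 95% counting intervals, a value of 0 is drawn at 0.005, and the dashed line is 1 FPKM. MYC and CDKN2A lie above 200 FPKM, RB1 lies between 1 and 3, and MYCL, MYCN and NOTCH1 lie under 1.

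Transcription factors, as the table's own annotation marks them, numbered 1493, with a median of 3.31 FPKM. Of these 1016 (68.1%) were at or above 1 FPKM, beside 64.2% of all genes. Among the 15 highest were YBX1 (852), NME2 (837), HMGA1 (455), ID1, HMGB1 (360.1), ATF4 (264), MYC, MAZ (233), HMGB2, ID3, SFPQ (189), INSM1, NFIX (181) and MYBL2. The class includes RNA-binding and chromatin proteins such as SFPQ and HMGB1. By class, 10 of 10 E2F factors, 26 of 27 MYB factors and 41 of 48 ZBTB factors were at or above 1 FPKM, against 50 of 89 bHLH, 90 of 150 homeobox, 18 of 41 forkhead and 5 of 15 T-box factors. Of the bHLH factors ID1, MYC, ID3, ID2 and NEUROD1 exceeded 100 FPKM. SOX4 (57.7), SOX12 (29.1) and SOX18 (15.6) led 16 SOX factors, FOXM1 (61.0) and FOXO6 (58.2) led 38 FOX factors, and POU3F1 (21.5), POU4F1 (18.9) and POU3F3 (12.6) led 10 POU factors. PAX6, PAX5 (3.46) and PAX9 (2.69) were the 3 of 7 PAX factors at or above 1 FPKM. KLF16 (39.3), KLF10 (11.8) and KLF3 (11.2) were the highest of 17 KLF factors and NKX6-1 (4.21), NKX2-5 (2.04) and NKX3-2 (1.66) of 9 NKX factors. Among 503 ZNF genes 349 (69.4%) reached 1 FPKM, with ZNF207 (91.7), ZNF593 (59.3) and ZNF580 (54.5) on top.

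The homeobox genes included DLX and HOX genes, which pattern the forebrain, branchial arches and body axis. DLX4 and DLX3 were at 81.7 and 70.7 FPKM and, of the others, DLX2 at 21.7, DLX1 at 17.6, DLX6 at 13.6 and DLX5 at 8.40. Of 36 HOX genes 29 (80.6%) were at or above 1 FPKM and 14 at or above 10, beside 64.2% and 35.9% of all genes. The HOXA cluster on chromosome 7 held the highest values, with HOXA9 at 54.5, HOXA10 at 46.0, HOXA11 at 30.3 and HOXA7 at 26.3 FPKM. In HOXC, HOXC10 was at 37.9 and its neighbor HOXC11 at 0.12 FPKM. In HOXB, HOXB2 (18.7) and HOXB7 (14.4) stood beside HOXB5 and HOXB9 with 0 counts. In HOXD the highest was HOXD13 at 19.8, and HOXD12 next to it had 0 counts.

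**Figure D4:**
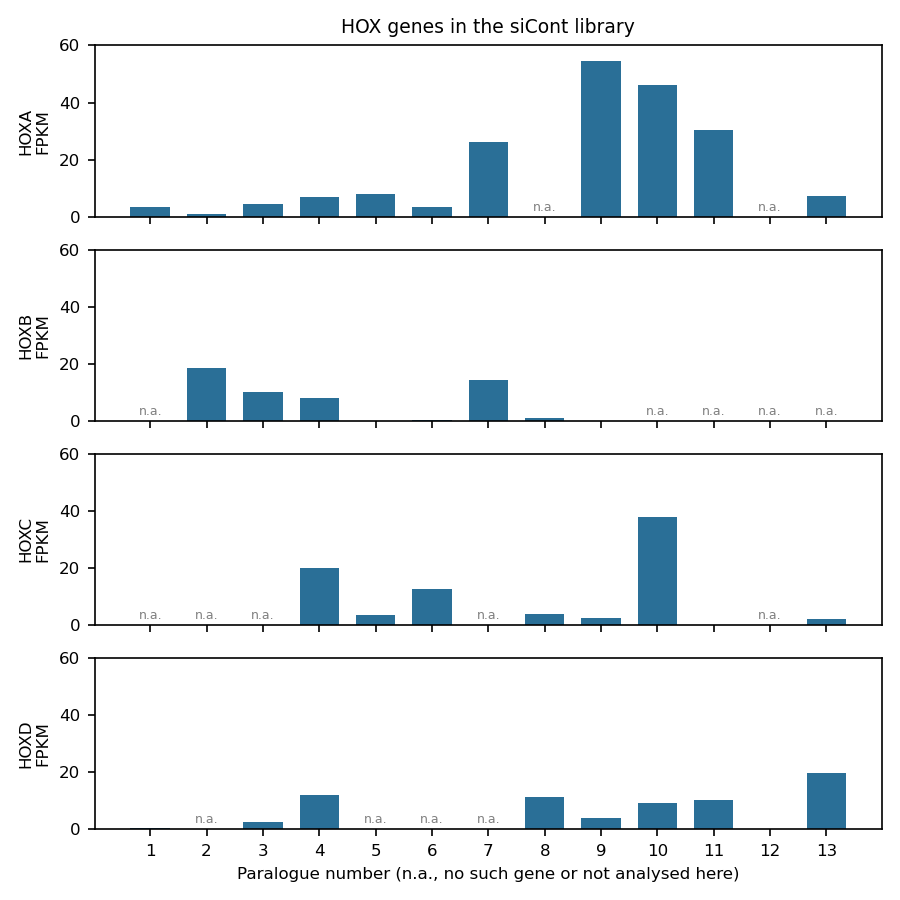
FPKM (y axis, same linear scale from 0 in each panel) of the HOX genes by paralog number (x axis) in the HOXA, HOXB, HOXC and HOXD clusters, with n.a. where there is no such gene or it was not analysed here. HOXA7 to HOXA11 and HOXC10 are the tallest bars, from 26.3 to 54.5 FPKM.

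Of 44 nuclear receptors 25 (56.8%) were at or above 1 FPKM, beside 64.2% of all genes, with a median of 1.59. ESRRA was the highest at 26.0 FPKM (1184 estimated counts, with shared reads, rank 3178). ESRRG stood at 7.41 FPKM (806 counts, interval 6.91 to 7.94, rank 7232) and ESRRB at 0.06 FPKM with 4 counts. ESRRG thus lay above the median gene and was the 15th of the nuclear receptors, after RXRG (23.3), NR2F6 (18.3), THRA (15.3), NR2F2 (14.5) and RXRB (13.6) among others. The glucocorticoid receptor NR3C1 was at 8.45 and ESR1 at 0.69 FPKM, and PGR had 0 counts. Of the genes chosen from the main text of the study, PIK3R2 at 153 FPKM has been given. CNTN2 was at 9.03 FPKM (1428 counts) and COL6A1 at 4.44 FPKM (376 counts). The others chosen sat under 1 FPKM. They were NECTIN2 at 0.66 (30 counts, interval of the counts 20.2 to 42.8), WNT4 at 0.41 (11 counts, 5.5 to 19.7) and MMP9 at 0.37 (17 counts, 9.9 to 27.2). The study also lists qPCR primers for ADAMTS8 and CDH15, which are not given here. It assayed CNTN2, MMP9, NECTIN2 and WNT4 in H128 cells by ChIP-qPCR as well, which these reads do not address. The levels of WNT4 and MMP9 in this library thus rest on fewer than 20 reads each.

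Receptor tyrosine kinases were present in 24 of 55 cases (43.6%), under the background share. EPHB2 led at 29.0, followed by MET at 21.1, the collagen receptor DDR1 at 18.0, EPHA3 at 17.0, RYK at 15.2 and FGFR2 at 15.2 FPKM. IGF1R was at 5.56, ALK at 5.31, EGFR at 1.06 and KIT at 1.01 FPKM. KDR, ROS1, LTK and EPHB3 had 0 counts.

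Of 291 genes with a transmembrane receptor domain of the rhodopsin, secretin, glutamate or Frizzled class 64 (22.0%) were at or above 1 FPKM, with a median of 0.11. This domain class was chosen after values were seen, because the 10 highest of 355 genes that the table annotates with G protein-coupled receptor activity included the splicing factors BUD31 (119) and DHX15 (103) and other non-receptors such as CCDC6 (24.3), LANCL1 (22.2) and TM2D1 (19.4). The receptors among those 10 were the adhesion receptors ADGRL1 (29.8), ADGRA3 (24.02) and ADGRL2 (23.7), the orphan GPR153 (26.4) and ADCYAP1R1 (26.0), the receptor of the neuropeptide PACAP. The domain class in turn held genes not known as receptors, such as its highest gene, the tubulin TUBB3 (191), and also NOP9 (14.5) and TTC33 (9.15), so its share is approximate. In the list of peptide and amine receptors 9 of 62 (14.5%) reached 1 FPKM, beside 64.2% of all genes. After ADCYAP1R1 came the bombesin receptor relative BRS3 (9.91), CALCRL (8.91), ADRB1 (4.55), AVPR1A (4.09) and CHRM3 (2.22 FPKM). SSTR2, a target of imaging in neuroendocrine tumors, was at 0.85 FPKM.

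Ligand-gated receptor subunits gave 22 of 54 (40.7%) at or above 1 FPKM, beside 64.2% of all genes. Among the 5 at or above 10 FPKM were the GABA-A subunits GABRA5 (16.8) and GABRB2 (12.5) and the nicotinic subunits CHRNB2 (20.9) and CHRNA5 (11.7), ahead of the AMPA receptor subunit GRIA4 at 8.45. Of the remaining nicotinic subunits CHRNA3 was at 4.65 and CHRNA7 at 2.03 FPKM. Of 70 potassium channel subunits 26 were at or above 1 FPKM, with KCNH2 at 94.4 and KCND3 at 19.8 FPKM. The calcium channel subunits CACNA2D2 (29.0), CACNA2D1 (11.2) and CACNB3 (6.43) led 21 genes, and sodium channel alpha subunits stayed at or under 3.16 FPKM, the level of SCN1A, with SCN8A at 2.84 and SCN3A at 1.74. The synaptotagmins SYT7 (46.5), SYT11 (27.9) and SYT4 (20.4) were the highest of 16.

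In the Notch pathway the receptors were low, while single ligands, the DNA-binding partner and several HES and HEY genes were not. Of 29 genes 16 (55.2%) were at or above 1 FPKM, beside 64.2% of all genes. NOTCH1 had 27 counts, NOTCH3 17, NOTCH4 14 and NOTCH2 10. HES4 (43.6), HES6 (32.2), the ligand JAG2 (24.5), the DNA-binding RBPJ (16.7), HEY2 (15.2) and NUMBL (12.7 FPKM) were the highest. HES1, a usual target of active Notch, stood at 0.66, and DLL3, the inhibitory ligand found on SCLC cells, at 8.42 FPKM (389 counts, interval 7.604 to 9.30). Hedgehog and Wnt ligands and receptors gave 14 of 40 (35.0%), led by the co-receptor LRP5 (14.8) and the Frizzled receptors FZD7 (14.2), FZD3 (6.78), FZD1 (5.64) and FZD6 (4.40), with GLI2 at 3.35. WNT10B was the 1 Wnt ligand at or above 1 FPKM, with 2.57, and SHH and IHH had 1 count each.

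**Figure D5:**
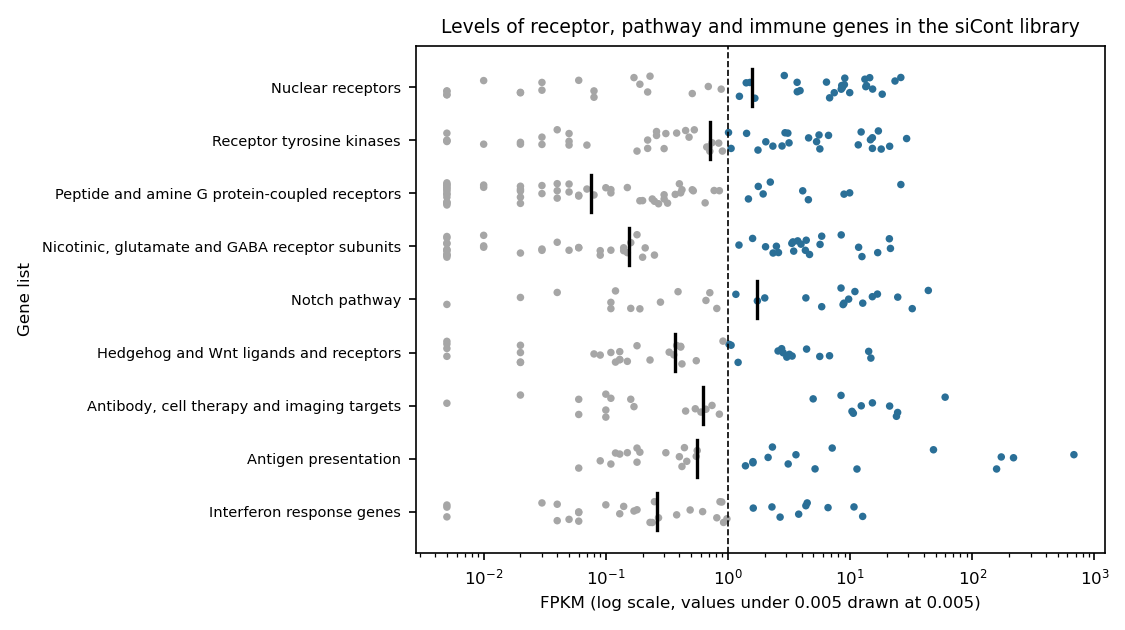
FPKM of each member (points, log x axis, values under 0.005 drawn at 0.005) of 9 lists of receptors, pathways and immune genes (y axis). Blue points are at or above 1 FPKM, gray points under it, black bars are list medians and the dashed line is 1 FPKM. Only the bars of the nuclear receptors (1.59) and the Notch pathway (1.74) lie above the line.

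Surface molecules used as targets of antibodies or cell therapy were at or above 1 FPKM in 10 of 26 cases (38.5%). The share of all genes was 64.2%. NCAM1 was the highest, followed by L1CAM (24.5), CD276 or B7-H3 (23.9), MET, SEZ6 (15.2) and B4GALNT1 (12.3 FPKM), the enzyme that forms the gangliosides GM2 and GD2. CD274 (PD-L1) was at 0.11 and CEACAM5 at 0.17 FPKM. Of drug targets and response genes 34 of 39 (87.2%) were at or above 1 FPKM, beside 64.2% of all genes. Among the 34 were IMPDH2 at 271, KDM1A, PARP1 at 142, HDAC2 at 111, PLK1 at 109 and IMPDH1 at 101. The 5 others were BCL2, MGMT (1 count), SLFN11 (4 counts, interval 1.1 to 10.2) and the efflux pumps ABCB1 and ABCG2 (0 counts). SLFN11 encodes a factor linked to sensitivity to DNA damage, and of its relatives next to it in the table SLFN5, SLFN12 and SLFN13 were at 0.06, 0.02 and 0.20 FPKM.

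Antigen presentation was uneven. B2M, the light chain of class I molecules, stood at 217 FPKM, and the chaperones CALR (679), CANX (173) and PDIA3 (158) were high. HLA-B was at 3.11 and HLA-C at 2.31 FPKM, both with shared reads, so their order is uncertain. PSMB10 was at 11.4 FPKM, whereas TAP1, PSMB8 and PSMB9, which load and cut peptides, were at 0.44, 0.42 and 0.15 and the activator NLRC5 at 0.13. In all 15 of 31 genes (48.4%) reached 1 FPKM, beside 64.2% of all genes. Of 36 interferon response genes 9 did, among them EIF2AK2 (10.8), IFIT5 (6.59), IFI6 (4.45), STAT2 (4.34), IFITM3 (3.79), ISG15 (2.67), IRF9 (2.29) and USP18 (1.61). The nucleic acid sensors CGAS and TLR3 had 0 counts and TMEM173 (STING) 2. Secreted immune factors were scarce, with IL32 (3.64) and IL15 (2.36) at or above 1 FPKM among 21 interleukins and CXCL14 (6.91), XCL1 (3.98), CCL5 (3.63) and CCL24 (1.40) among 32 chemokines. Of 16 FGF genes FGF14 (16.1), FGF9 (2.81), FGF11 (1.55) and FGF2 (1.15) reached it.

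Cancer-testis antigens, which are normally confined to germ cells, were strong in some members. Of 22 genes with a MAGE symbol, not all of them confined to germ cells, 10 (45.5%) were at or above 1 FPKM, beside 64.2% of all genes. MAGED1, a MAGE gene of many tissues, was at 184 FPKM, and the X-linked MAGEA3, MAGEA6 and MAGEA12 stood at 102, 96.9 and 64.0 FPKM. The near-identical MAGEA genes shared reads, so their separate values are uncertain. CSAG1 and CSAG2, which lie between MAGEA3 and MAGEA12 in the table, were at 92.0 and 48.2 FPKM. CTAG2 was at 122 and the identical copies CTAG1A and CTAG1B, which encode NY-ESO-1, at 67.7 each. Of the 25 GAGE, XAGE, PAGE, SSX, CT45 and CTAG genes 5 (20%) reached 1 FPKM, the others being XAGE1A and XAGE1B at 2.11.

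Families of specialized tissues lay near 0. No taste receptor of 13 and no beta-defensin of 2 reached 1 FPKM, the highest being TAS2R14 at 0.43 and DEFB1 at 0.70. Of 33 olfactory receptors 2 did, OR7E24 (4.46) and OR1F1 (1.16), and of 6 keratin-associated proteins 1, KRTAP5-1 (3.32). Axonemal dyneins gave 3 of 13, with DNAH14 at 17.6, DNAH2 at 3.64 and DNAH12 at 1.99. HBQ1, the theta globin gene, stood at 18.0 FPKM with 224 counts and HBA1 at 1.91, whereas HBA2 and HBZ had 0 counts.

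Housekeeping genes were also read, as a reference and not as a test of the scale. All 14 reference genes were at or above 1 FPKM, from TBP at 8.56 to PPIA at 2861, with a median of 266. Besides PPIA, GAPDH, RPLP0 and ACTB, PGK1 was at 486 FPKM. A published set of housekeeping genes carried in the table's annotation had 388 members, of which 367 (94.6%) were at or above 1 FPKM with a median of 155. Of its members 21 stood under 1 FPKM, and those given here were named after their values were seen. The lowest were FMOD (0), CD34 (0.04), HTRA1 (0.05) and the class II gene HLA-DPA1 (0.09). Others were the death receptor FAS (0.17), S100A10 (0.29), the class II gene HLA-DRA (0.40), NDRG1 (0.42) and LGALS3 (0.92). GSTP1, a glutathione transferase that is silenced in some tumors, was in the same set at 2.47 FPKM (46 counts) and LGALS1 at 1.71 (18 counts).

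Promoter windows held fewer CpG dinucleotides in genes under 1 FPKM than in genes above it, and the medians of the 3 classes above 1 FPKM lay between 23 and 24. Windows from 250 bases before to 50 bases after the gene start could be read for 16737 genes (95.9%) in the GRCh37 reference with its GENCODE annotation. The median window held 8 CpG dinucleotides for the 2815 genes under 0.1 FPKM, 12 for the 2888 genes from 0.1 to 1, 23 for the 4800 genes from 1 to 10, 24 for the 5459 genes from 10 to 100 and 23 for the 775 genes at or above 100 FPKM. The share with 20 or more CpG was 27.6% in the lowest class, 35.0% in the next, 60.1% from 1 to 10, 65.8% from 10 to 100 and 62.3% in the highest class. The motif TATAAA, searched on the strand of the gene, was in 10.2% of the windows of the lowest class, in 3.59% from 10 to 100 FPKM and in 6.19% of the highest class, against 5.84% of all windows. The cAMP response element TGACGTCA, which reads the same on both strands, was in 1.101% of the lowest class, 3.66% from 10 to 100 FPKM, 2.71% of the highest class and 2.47% of all windows. No test was run, and the start of the annotated gene need not be the start used in H128 cells.

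4 windows of 250 bases before the start show the range, taken from RefSeq on GRCh38.p14 and printed 5′ to 3′ on the strand of the gene with each CpG in capitals. NEUROD1 and CHGA are shown as expressed neuroendocrine genes, REST as a CpG-rich and SFTPB as a CpG-poor promoter of genes with few counts. The windows are chr2:181680518-181680767 on the minus strand for NEUROD1 (24 CpG, 123 FPKM), chr14:92922900-92923149 on the plus strand for CHGA (21 CpG, 80.9 FPKM), chr4:56907650-56907899 on the plus strand for REST (36 CpG, 0.04 FPKM) and chr2:85668742-85668991 on the minus strand for SFTPB (1 CpG, 0.27 FPKM). RefSeq gave 2 windows each for REST and SFTPB, of which the window listed before the other is shown. The printed windows differ from those of the classes in annotation and length, so their CpG numbers cannot be set against the class values. In the class windows NEUROD1 held 17 CpG, under the line of 20.
NEUROD1: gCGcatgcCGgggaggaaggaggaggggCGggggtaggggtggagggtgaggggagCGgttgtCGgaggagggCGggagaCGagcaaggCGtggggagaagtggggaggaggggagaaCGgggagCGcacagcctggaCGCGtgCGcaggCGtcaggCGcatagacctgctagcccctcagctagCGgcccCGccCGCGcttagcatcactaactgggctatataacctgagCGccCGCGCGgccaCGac
CHGA: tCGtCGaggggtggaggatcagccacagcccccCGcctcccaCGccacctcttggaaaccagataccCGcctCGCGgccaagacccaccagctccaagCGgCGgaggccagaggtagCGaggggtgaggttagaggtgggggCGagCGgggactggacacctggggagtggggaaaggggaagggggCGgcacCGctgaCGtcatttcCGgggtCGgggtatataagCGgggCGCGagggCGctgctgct
REST: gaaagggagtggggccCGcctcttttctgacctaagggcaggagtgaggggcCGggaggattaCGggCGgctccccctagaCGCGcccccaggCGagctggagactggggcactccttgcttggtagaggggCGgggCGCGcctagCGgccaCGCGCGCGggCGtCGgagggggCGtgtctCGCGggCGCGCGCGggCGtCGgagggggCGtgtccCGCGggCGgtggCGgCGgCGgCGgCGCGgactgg
SFTPB: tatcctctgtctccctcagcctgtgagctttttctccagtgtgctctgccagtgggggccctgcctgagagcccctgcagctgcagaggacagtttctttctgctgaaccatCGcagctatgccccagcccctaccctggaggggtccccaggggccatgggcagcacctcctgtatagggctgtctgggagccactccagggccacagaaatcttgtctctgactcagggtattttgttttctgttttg
The CHGA window holds TGACGTCA from position -54, counted backwards from the base before the start, and the other 3 windows do not. None of the 4 holds the exact motif TATAAA, but the NEUROD1 and CHGA windows hold the similar stretch TATATAA toward their 3′ end. Whether these stretches are used was not tested.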

How the data were processed

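Total RNA was taken from H128 cells 48 h after transfection with a control siRNA, and 1 library (siCont) was sequenced with a directional kit. The deposited table gives 1 estimated count and 1 length-normalized value per gene, which the authors made. The deposited expression values, which the authors had already scaled to length and library total, were taken as FPKM because the lengths implied by value, estimated count and library total are those of transcripts (1276 bases for GAPDH), although the column heading does not name the unit. The submitters' processing notes name TopHat2, HTSeq and DESeq2 and the builds hg19, hg38 and GRCh38, the study's methods name hg19 with BWA and Bowtie 2, and the program that gave the non-whole counts is not given in the sources used here, since HTSeq counts whole reads. The labels speak of paired-end and the methods of single-end reads. Gene positions in the table match GRCh38. Reads were not reprocessed.

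The column of siCont was used alone, without the other 2 libraries and without any test, replicate or p-value. Ranks were set by FPKM over 17448 genes. The threshold was 1 FPKM, chosen by convention. Exact Poisson 95% intervals were taken from rounded counts and scaled to FPKM (Python 3, SciPy and pandas), and the floor was 3 counts. The calculation of intervals and calls was checked on Poisson counts simulated at the observed levels. That simulation holds no shared reads and no spread between cultures, so it cannot show how well the intervals hold for these data. Gene lists held 928 symbols, of which 826 were analysed. The members and lists were chosen with earlier results of these data known. Genes were named as the 25 highest, all members of lists of up to 15 genes or the 6 highest with at least 10 counts, defining markers at or near 0, the 3 highest of each family, the 15 highest transcription factors, the 10 highest annotated receptors and genes the study names. Others are given as chosen after their values were seen, or as relatives and neighbors of these. Promoter windows matched by Ensembl identifier or symbol, and printed sequences came from RefSeq. The alternatives were thresholds of 0.5 and 2 FPKM and 1 CPM, a minimum of 10 counts, whole counts alone, ranks by counts and leaving out transcripts under 500 bases. Some genes that these rules name are not reported here.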

Additional observations from a re-analysis of the deposited data

How the results depend on the processing

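No paired analysis was possible because the library is alone in its group and no test was run. The number of genes at or above 1 FPKM was 11199. It was 12062 at 0.5 FPKM, 10238 at 2 FPKM, and 5707 when genes with non-whole counts were left out, which removes genes by construction. The number of list members at or above 1 FPKM went from 431 to 262 with whole counts alone and stayed within 1.5 times of 431 under the other thresholds. The share held by the 100 highest genes was 31.6% of the summed FPKM, 18.4% of all counts for the 100 genes with most counts, 30.2% without transcripts under 500 bases and 29.6% without the MTRNR2L genes, an alternative chosen after seeing the data. Of the 25 highest genes 14 were also among the 25 with most counts. Of 29 lists, the count at or above 1 FPKM moved by over 1.5 times in 4 at 0.5 FPKM, 5 at 2 FPKM, 6 at 1 CPM and 16 with whole counts alone. Ranks by counts were compared for 180 named genes, which are not all the genes named in this text. Of these, 84 stood higher by counts and 76 lower beyond their counting interval. Over the 180 the shift had a median of 2.75 and a maximum of 29.1 percentile points in either direction, the latter for HBQ1, which stood lower by counts. Depth limits genes with few counts, and the spread between cultures is not known.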

Other observations

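Some named values rested on counts that were not whole, taken as reads shared with other features, and for these the level of the single gene is less certain than its counting interval says. Besides the MTRNR2L, HLA, MAGEA and CTAG genes and ANXA2, these were, among lineage, translation and structural genes, POU2F3, ESRRA, RPS4X, RPL41, EEF1A1, PPIA, ENO1, PTMA, TUBA1B, ACTB, HSP90AA1, TUBB, TUBA1A, TUBB3, H3F3A, H2AFY, ENO2, SNAP25, CALCA, PRPH, DCX, FABP3, SGCE, AVIL, GFI1B, CAPS, SFTPB, PECAM1, LYZ, PTPRC, CD24, CDH1, CDH23, CDH7, CDH12, TEAD4, ZEB1, WWTR1, AXL, COL16A1, COL19A1 and MMP24. Among oncogenes, cell cycle genes, suppressors and transcription factors they were MLX, MNT, MLXIP, MXD3, MLXIPL, CDKN2A, CDK4, MTAP, CDKN2B, RBL1, RBL2, CDK6, STMN1, MCM7, PIK3R2, EZH2, NRAS, FGFR1, SOX2, SMARCA2, EP300, NOTCH2, NOTCH4, YBX1, NME2, HMGA1, HMGB1, ATF4, SFPQ, NFIX, FOXM1, POU3F1, POU4F1, POU3F3, PAX9, ZNF207, DLX6, HOXA7 and HOXB7. Among receptors, signaling, immune and other genes they were THRA, RXRB, NR3C1, ESR1, EPHB2, MET, EPHA3, FGFR2, BUD31, LANCL1, ADGRA3, ADGRL2, GPR153, AVPR1A, CHRM3, SSTR2, GABRA5, CHRNB2, CHRNA5, GRIA4, CHRNA3, CHRNA7, KCNH2, KCND3, CACNA2D1, SCN1A, SCN3A, SYT11, NUMBL, LRP5, FZD7, FZD3, FZD1, GLI2, WNT10B, B4GALNT1, CEACAM5, HDAC2, IMPDH1, SLFN5, SLFN13, CALR, TAP1, NLRC5, EIF2AK2, IFI6, STAT2, IFITM3, IL15, XCL1, CCL5, CCL24, FGF9, FGF2, MAGED1, CSAG1, CSAG2, TAS2R14, OR7E24, OR1F1, KRTAP5-1, DNAH14, DNAH2, DNAH12, TBP and FAS. The same holds for NOP9, PAICS, POLR2B, SRP72 and DCUN1D5.

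The following genes were named after their values were seen. The aldose reductase AKR1B1 was at 250.1 FPKM (rank 254) and the calcium-binding SCGN, a marker of neuroendocrine cells, at 29.3 FPKM. GAD1 was at 3.44 FPKM, while GAD2 had 1 count. SLC17A7 had 5 counts beside the 1791 counts of SLC17A6. Of the genes within 8 positions of YAP1 in the table, TMEM123 and DCUN1D5 stood at 54.6 and 47.9 FPKM and BIRC3 at 0.05. PGR, TRPC6, MMP3 and MMP12, also within 8 positions of YAP1, had 0 counts. Of those around REST, PAICS stood at 264, POLR2B at 65.3 and SRP72 at 63.8 FPKM, and HOPX at 0.47, SPINK2 at 0.07 and THEGL at 0.06. Of those around RB1, ESD was at 73.6 and ITM2B at 49.8 FPKM, and LPAR6, which lies within an intron of RB1, at 0.30. Also near RB1, HTR2A was at 0.02 FPKM and CYSLTR2 had 0 counts. These are levels in a single library and no test was run on them.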
